A study of Mus musculus with 4 samples.

Results

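The genes described here are 32 genes of glycolysis and of the response to low oxygen, followed across the immune cells of mouse nasal mucosa. They were found by their symbols, and each of the 32 matched 1 row among the 27998 genes listed. The data were 4 droplet libraries of RNA from single CD45+ cells, taken from the nasal mucosa of C57BL/6 mice aged 8 weeks. There was 1 library for each condition, namely Vehicle, Ribavirin, Vehicle-OVA and Ribavirin-OVA. In the OVA groups allergic rhinitis was modelled with ovalbumin (OVA), to which mice are sensitised by injection before challenge in the nose. Ribavirin is an antiviral nucleoside drug, which the series names as a nasal spray, so both Ribavirin groups share the drug and both Vehicle groups lack it. How many mice were pooled in a library was not given in the sources used here.

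The libraries held 10311 to 28277 cells and 91742940 to 171873110 UMIs (unique molecular identifiers, each counting 1 captured transcript). After filtering, cells were put into classes by their marker UMIs, and 10 classes had at least 50 cells in every library. A name such as neutrophil-like means only that the cell carried those markers. In neutrophil-like cells the 8 neutrophil markers summed to 75228 to 109415 CPM (UMIs of a gene scaled to the same total of UMIs in every class and library), and in macrophage-like cells they summed to 543 to 1440 CPM. T cell-like cells were called from 5 markers, which summed to 2337 to 3110 CPM there and to 22.5 to 72.6 CPM in neutrophil-like cells. Between 9.65% and 15.4% of the kept cells carried markers of several classes and were left out. The Ribavirin library had no cell under 1782 UMIs, while the others reached down to 500 or 501 UMIs. Pairs of libraries shared 57 to 174 cell barcodes, at most 0.909% of the smaller library.

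Glycolysis splits glucose into pyruvate in the cytosol. Glucose enters through transporters, is trapped by hexokinases, is committed at the phosphofructokinase step, and leaves as lactate through monocarboxylate transporters. When oxygen is low, the prolyl hydroxylases (Egln genes) no longer mark HIF-1 alpha for breakdown, and HIF-1 binds DNA and raises many glycolytic genes together with Vegfa, Bnip3 and Ddit4. Neutrophils have few mitochondria and are known to live largely on glycolysis. In activated macrophages, HIF-1 target genes can also rise without low oxygen, so these transcripts are not in themselves a measure of oxygen.

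The classes differed in which of these genes they carried. By the median over the 4 libraries, neutrophil-like cells had the highest level of 15 of the 32 genes, and for 9 of these they were highest in each of the 4 libraries. Monocyte-like and T cell-like cells were highest for 5 genes each, macrophage-like cells for 3 and classical dendritic (cDC)-like cells for 2. The share of all genes that were highest in each class was not computed, so these counts describe the list alone. The UMIs of 14 glycolytic enzymes together made up 0.318% to 0.467% of all UMIs in neutrophil-like cells and 0.323% to 0.442% in monocyte-like cells. These ranges overlapped. In plasmacytoid dendritic (pDC)-like cells the same sum was 0.128% to 0.155%, the lowest range by median of the 10 classes.

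**Figure D1:**
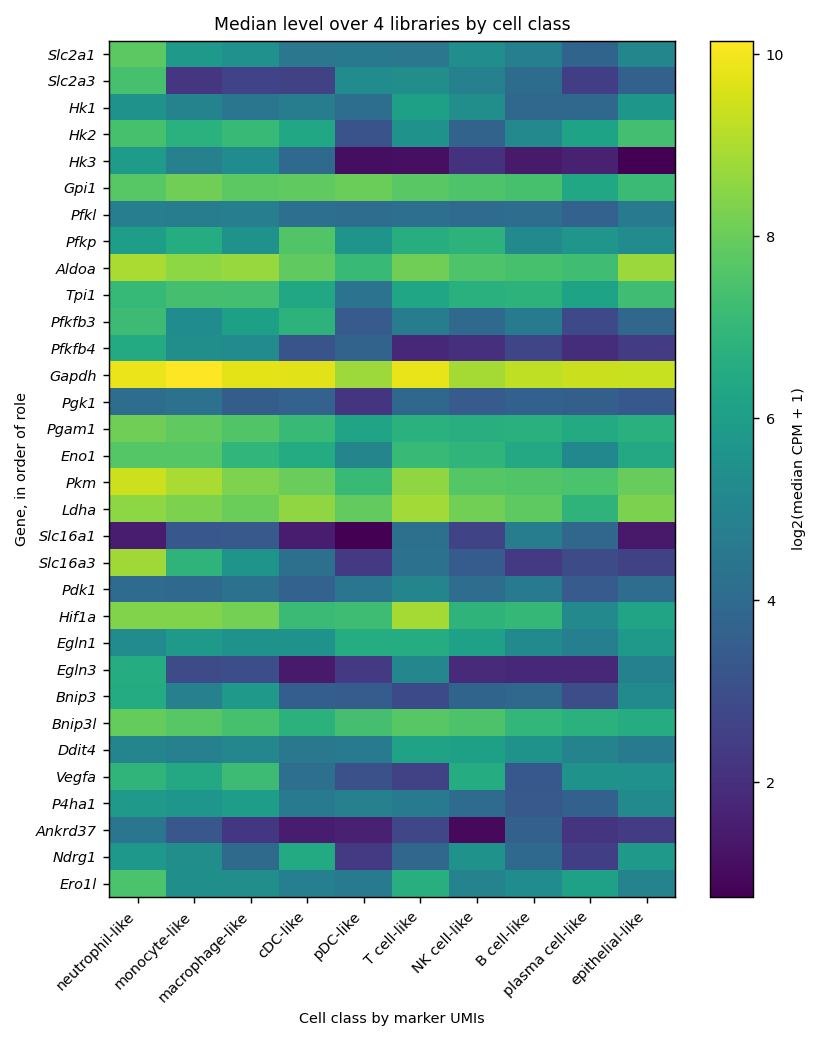
Median CPM over the 4 libraries for each of the 32 genes (rows, in order of role) in each of 10 cell classes (columns), coloured on a log2(CPM + 1) scale. Slc2a1, Slc2a3, Slc16a3 and Egln3 are bright in the neutrophil-like column, and Hk3 is dark outside the neutrophil-like, monocyte-like, macrophage-like and cDC-like columns.

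Both glucose transporters stood out in neutrophil-like cells. Slc2a1, the widely used basal transporter, was at 203 CPM in Vehicle, 378 in Vehicle-OVA, 209.7 in Ribavirin and 233 in Ribavirin-OVA in neutrophil-like cells. Slc2a3, a transporter of high affinity, was at 81.7, 199.6, 138.8 and 232 CPM in the same order. Neither overlapped the next class: monocyte-like cells had 46.4 to 91.1 CPM of Slc2a1, and T cell-like cells had 35.1 to 51.3 CPM of Slc2a3.

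The 3 hexokinases, which make the first phosphorylation of glucose, were spread over different classes. Hk1, the constitutive form, was highest in T cell-like cells at 56.2 to 80.0 CPM, in each of the 4 libraries. Hk2, the inducible form, was highest by median in neutrophil-like cells at 115 to 293 CPM, which overlapped epithelial-like cells at 126 to 291 CPM. Hk3, a form known from myeloid cells, had 37.4 to 83.9 CPM in neutrophil-like cells and 34.4 to 39.5 CPM in macrophage-like cells, against 0.79 to 3.15 CPM in T cell-like cells.

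Of the regulators of fructose 2,6-bisphosphate, the activator of phosphofructokinase, Pfkfb4 was highest in neutrophil-like cells (63.4 to 133 CPM) without overlap with monocyte-like cells (33.4 to 52.3 CPM). Pfkfb3 reached 84.6 to 309.6 CPM in neutrophil-like cells and overlapped cDC-like cells (104 to 152 CPM). Pfkp, the platelet-type phosphofructokinase, was highest in cDC-like cells in each of the 4 libraries, at 129.9 to 269 CPM. The lactate exporter Slc16a3 was at 233 to 702 CPM in neutrophil-like cells and at 55.8 to 204 CPM in monocyte-like cells, with no overlap. Its relative Slc16a1 was highest by median in B cell-like cells, at 13.6 to 41.1 CPM. Among the oxygen sensors, Egln3 was highest in neutrophil-like cells (47.7 to 228 CPM against 25.6 to 44.7 CPM in T cell-like cells), while Egln1 was highest by median in pDC-like cells (70.8 to 117 CPM) and overlapped T cell-like cells. Vegfa, the vascular growth factor, was highest by median in macrophage-like cells at 75.7 to 246 CPM, overlapped neutrophil-like cells at 91.4 to 185 CPM, and was at 3.15 to 12.0 CPM in T cell-like cells.

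The class differences were tested on UMI sums with the 4 libraries as replicates, in edgeR's quasi-likelihood test with the library as a block and Benjamini-Hochberg adjustment over all genes tested. The 4 libraries come from 4 different treatments. With the library as a block, the spread used leaves out shifts that all classes of a library share. It holds the variation of class differences between libraries, and so between treatments. In neutrophil-like against macrophage-like cells, 27 of the 32 genes were higher and 0 lower, while 34.8% of the 13576 genes tested were higher and 34.4% lower. At an unadjusted p under 0.05 the count of lower genes was also 0, and DESeq2's Wald test gave 0 as well. The largest rises were in Slc2a3 (log2 fold change 5.41 ± 0.30 SE, adjusted p = 6.4e-17), Egln3 (4.42 ± 0.35, adjusted p = 4.2e-13) and Slc16a3 (3.70 ± 0.26, adjusted p = 2.9e-14). All 5 genes of lower glycolysis in the list (Gapdh, Pgk1, Pgam1, Eno1 and Pkm) were called higher on this scale. With library totals alone in place of TMM scaling (a factor that sets the bulk of genes to no change) the log2 fold changes lost the offset that TMM scaling adds, which had a median of 0.48 over well expressed genes. Then 18 genes were higher (20.8% of all genes) and 2 lower (44.7% of all genes), the 2 being Slc16a1 and Egln1. Gapdh and P4ha1 had a log2 fold change of -0.01 and -0.11 there, so their direction rested on the scaling.

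Against T cell-like cells, 27 genes were higher in neutrophil-like cells and 1 lower, beside 40.9% and 34.6% of all genes. The largest rises were in Hk3 (log2 fold change 6.24 ± 0.33), Pfkfb4 (5.85 ± 0.20) and Vegfa (5.40 ± 0.40), each with an adjusted p of 8.1e-14 or lower. Egln1, the main oxygen-sensing hydroxylase, was lower (-0.43 ± 0.15, adjusted p = 0.0092), and its adjusted p passed 0.05 without the Vehicle library (0.058) and without the Ribavirin-OVA library (0.053). On library totals alone 20 genes were higher and 7 lower, beside 21.5% and 55.7% of all genes. Hk1 and Hif1a, which encodes the HIF-1 alpha subunit, were called higher under TMM scaling and lower on library totals, at log2 fold changes of -0.48 and -0.37.

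Macrophage-like against T cell-like cells split the list. Of the 32 genes 15 were higher and 7 lower in macrophage-like cells, beside 35.7% and 30.1% of all genes. Hk3 (log2 fold change 5.12 ± 0.32, adjusted p = 9.4e-16), Vegfa (5.07 ± 0.40, adjusted p = 3.5e-13) and Pfkfb4 (4.14 ± 0.19, adjusted p = 4.8e-19) were the highest. Slc2a3 (-2.61 ± 0.27, adjusted p = 2.6e-10), Egln3 (-2.16 ± 0.33, adjusted p = 6.8e-07) and Hk1 (-1.28 ± 0.16, adjusted p = 2.9e-08) were the lowest. On library totals alone 13 were higher and 11 lower, beside 23.8% and 42.3% of all genes.

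Monocyte-like and macrophage-like cells differed in fewer of these genes, and also in fewer of all genes, than the class pairs above. In monocyte-like cells 7 were higher and 1 lower, beside 12.8% and 18% of all genes, and 24 did not pass the test. Ndrg1, a hypoxia-induced gene, had a log2 fold change of 1.35 ± 0.23 (adjusted p = 2.0e-05), Slc16a3 of 1.15 ± 0.24 (adjusted p = 0.00030) and Pfkp of 1.13 ± 0.24 (adjusted p = 0.00033). Pfkfb3 was lower at -0.79 ± 0.26 (adjusted p = 0.017), a call lost without the Ribavirin library (adjusted p = 0.11) or the Ribavirin-OVA library (adjusted p = 0.10), and 3 genes rather than 7 were higher without the Vehicle or without the Ribavirin library.

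Within neutrophil-like cells, those with at least 2 UMIs of Siglecf, a lectin found on eosinophils and on a subset of tissue neutrophils, were set against those with 0 Siglecf UMIs. There were 387 to 1629 Siglecf-positive cells per library, with medians of 3396 to 3802 UMIs per cell, and 1938 to 10111 Siglecf-negative cells, with medians of 2050 to 2890 UMIs. The 7 eosinophil markers summed to 4.74 to 6.17 CPM over all neutrophil-like cells. Slc16a3 was at 81.4 CPM in Vehicle, 292 in Vehicle-OVA, 125 in Ribavirin and 154 in Ribavirin-OVA in Siglecf-positive cells, and at 343, 735, 551 and 586 CPM in Siglecf-negative cells. Slc2a3 was at 34.8, 86.8, 51.5 and 86.0 CPM in Siglecf-positive cells and at 116, 211, 178 and 285 CPM in Siglecf-negative cells. For both genes the Siglecf-positive cells were the lower ones in each of the 4 libraries.

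By edgeR, 28 of the 32 genes were lower in Siglecf-positive cells and 0 higher, beside 30.1% and 32.1% of the 10247 genes tested. No gene of the list was higher at an unadjusted p under 0.05 either, and DESeq2's Wald test also gave 0. The lowest were Ddit4, an inhibitor of mTORC1 signalling (log2 fold change -2.59 ± 0.22, adjusted p = 2.3e-05), Slc16a3 (-2.58 ± 0.13, adjusted p = 1.7e-06) and Slc2a3 (-2.35 ± 0.12, adjusted p = 1.7e-06). The size of this difference depended on the scaling. On library totals alone 17 genes were lower (11.5% of all genes) and 3 higher (61% of all genes), the 3 being Hk2, Vegfa and Egln1. The 17 were also lower under TMM scaling. They held both glucose transporters, Hk3, Pfkl, Pfkp, Pfkfb3, Slc16a3, Hif1a, Egln3, Bnip3, Ddit4, Ndrg1 and Ero1l. Gapdh and Bnip3l changed sign, from log2 fold changes of -0.43 and -0.59 to 0.28 and 0.12. In cells of 2000 to 5000 UMIs 29 genes were lower and 0 higher under TMM scaling. The shares of all genes at this depth are not given, so these counts have nothing to be set against.

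**Figure D2:**
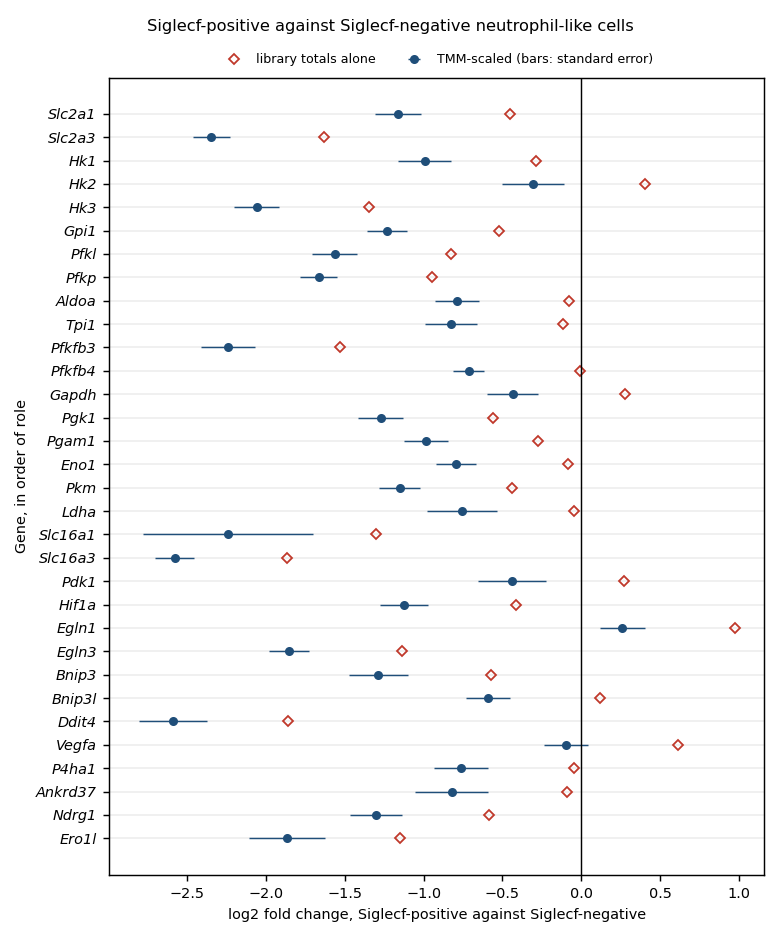
Log2 fold change of each of the 32 genes in Siglecf-positive against Siglecf-negative neutrophil-like cells over 4 libraries, with TMM scaling (filled circles, bars are standard errors) and on library totals alone (open diamonds). The diamonds lie about 0.71 to the right of the circles, and Slc2a3, Slc16a3, Ddit4 and Pfkfb3 lie below -1.5 on both scales.

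The OVA comparisons had 1 library on each side, with no replicate in any group, so treatment was not tested and no p is given. A gene is called past 1.5-fold where its log2 ratio of CPM + 1, less the median over all genes with at least 50 UMIs in that class, reached that size and the 95% exact counting interval of its ratio did not hold that median ratio. Intervals cover counting error only, not the difference between mice or preparations. In neutrophil-like cells of vehicle-treated mice 29 of the 32 genes were called higher with OVA and 0 lower, beside 23.4% and 22.4% of 12014 genes. Under ribavirin 10 were higher and 0 lower, beside 11.9% and 15.4%. The median of the 32 centred log2 ratios was 1.55 under vehicle and 0.47 under ribavirin, where all genes tested have a median of 0 by construction.

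The median gene itself moved by -0.53 on the log2 scale with OVA under vehicle in neutrophil-like cells and by 0.21 under ribavirin. Without taking that median away, 22 genes were higher and 1 lower under vehicle, beside 11.8% and 47.3% of all genes, and 20 were higher and 0 lower under ribavirin, beside 23.5% and 9.94%. The gap between 29 and 10 genes was thus 22 against 20 on the plain CPM scale. Neutrophil-like cells had a median of 2321 UMIs and 984.5 genes per cell in Vehicle and of 2929 UMIs and 904 genes in Vehicle-OVA. The neutrophil-like cells with 0 Siglecf UMIs gave 28 genes higher and 1 lower under vehicle (21.6% and 20.4% of all genes) and 10 higher and 0 lower under ribavirin (13.2% and 15.5%), the 1 being Ankrd37. With cells of at least 2000 UMIs in every library the counts were 29 and 9 higher, given without the shares of all genes.

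The named genes are those called in the same direction under vehicle and under ribavirin, ordered by the smaller of both log2 ratios. In neutrophil-like cells these were led by Ero1l, an oxidase that forms disulfide bonds in the endoplasmic reticulum. Ero1l was at 62.8 CPM in Vehicle and 595 in Vehicle-OVA, a ratio of 9.47 (interval 8.96 to 10.0), and at 71.9 CPM in Ribavirin and 288 in Ribavirin-OVA, a ratio of 4.01 (3.77 to 4.26). Both OVA libraries were above both others, which largely follows from choosing genes called in both pairs. Egln3 was at 51.6 and 228 CPM under vehicle (ratio 4.42, 4.15 to 4.71) and at 47.7 and 137 CPM under ribavirin (ratio 2.86, 2.64 to 3.11). Egln3 is itself a HIF target as well as a hydroxylase of the pathway.

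Bnip3, a receptor that marks mitochondria for removal, was at 63.7 and 236 CPM under vehicle (ratio 3.71, 3.50 to 3.93) and at 51.1 and 121 CPM under ribavirin (ratio 2.36, 2.17 to 2.56). P4ha1, a subunit of the collagen prolyl hydroxylase, was at 39.2 and 121 CPM under vehicle and at 32.4 and 73.0 CPM under ribavirin. Pfkl, the liver-type phosphofructokinase, was at 16.0 and 74.4 CPM under vehicle (ratio 4.66, 4.15 to 5.23) and at 16.2 and 35.9 CPM under ribavirin (ratio 2.21, 1.91 to 2.57). For each of these 5 genes the order was Vehicle-OVA, Ribavirin-OVA and then the libraries without OVA. The other 5 called in both pairs were Hk3, Gpi1, Tpi1, Pgk1 and Pdk1, with centred log2 ratios of 0.83 to 2.00 under vehicle and 0.68 to 0.76 under ribavirin. Of these, Hk3 and Gpi1 had a higher CPM in Ribavirin-OVA than in Vehicle-OVA, while Tpi1, Pgk1 and Pdk1 had a lower one.

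Genes called under vehicle alone in neutrophil-like cells included Slc2a1, Slc2a3, Hk2, Ldha, Slc16a3, Hif1a, Ddit4 and Vegfa. Whether vehicle and ribavirin differed was not tested for any of them. Ddit4 was at 15.5 CPM in Vehicle, 90.6 in Vehicle-OVA, 23.0 in Ribavirin and 40.5 in Ribavirin-OVA. Slc16a1, chosen after its values were seen, was at 1.63, 17.2, 1.82 and 1.83 CPM in the same order, so the Vehicle-OVA library alone was high. Gapdh, the common reference enzyme, went the other way on the plain scale, at 1124 CPM in Vehicle and 909 in Vehicle-OVA, and at 989 in Ribavirin and 810.3 in Ribavirin-OVA. Its centred log2 ratios were 0.23 and -0.50, and it was not called in either pair. Reads of Gapdh, Pgk1 and Eno1 that also match near-identical copies may have been dropped in the authors' counting, so the levels of these 3 genes are less certain.

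In macrophage-like cells 25 of the 32 genes were called higher with OVA under vehicle and 0 lower, beside 15.2% and 17.1% of 12243 genes. Under ribavirin 15 were higher and 0 lower, beside 13.7% and 15.2%. The median gene moved by 0.19 and 0.20 on the log2 scale, so the scale was alike in both pairs, and without centring 26 and 19 were higher (24.1% and 23.7% of all genes). All 15 genes called under ribavirin were also called under vehicle, an overlap that was not computed for all genes.

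Egln3 led in macrophage-like cells, at 1.62 CPM in Vehicle and 22.4 in Vehicle-OVA (ratio 13.8, 10.3 to 18.8) and at 1.98 CPM in Ribavirin and 12.1 in Ribavirin-OVA (ratio 6.11, 4.46 to 8.52). Ddit4 was at 9.23 and 74.5 CPM under vehicle (ratio 8.07, 7.11 to 9.19) and at 13.4 and 53.6 CPM under ribavirin (ratio 4.02, 3.54 to 4.57). Slc16a3 was at 18.9 and 129.9 CPM under vehicle (ratio 6.89, 6.29 to 7.55) and at 23.6 and 72.6 CPM under ribavirin (ratio 3.07, 2.78 to 3.40). In all 3 genes both OVA libraries were well above both libraries without OVA. That largely follows from choosing genes called higher in both pairs.

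Bnip3 was at 25.4 and 118 CPM under vehicle and at 26.2 and 86.5 CPM under ribavirin, and Ero1l at 23.6 and 101 CPM under vehicle and at 22.5 and 58.4 CPM under ribavirin. Hif1a itself was at 153 and 533 CPM under vehicle and at 167 and 408 CPM under ribavirin. The others called in both pairs were Pfkp, Tpi1, Pgk1, Pgam1, Eno1, Slc16a1, Pdk1, Egln1 and Bnip3l. Genes called higher in both pairs in neutrophil-like and in macrophage-like cells numbered 6: Tpi1, Pgk1, Pdk1, Egln3, Bnip3 and Ero1l. The share of all genes with the same calls was not computed, so this count describes the list alone. Neutrophil marker RNA moved too, since in macrophage-like cells the neutrophil markers were at 0.754% of their neutrophil-like level in Vehicle, 1.91% in Vehicle-OVA, 0.873% in Ribavirin and 0.612% in Ribavirin-OVA. At that share, the neutrophil-like level of Egln3 would give 4.36 of the 22.4 CPM in Vehicle-OVA, that of Slc16a3 13.4 of 129.9 CPM, and that of Ero1l 11.4 of 101 CPM. For Bnip3 it would be 4.52 of 118 CPM and for Ddit4 1.73 of 74.5 CPM.

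**Figure D3:**
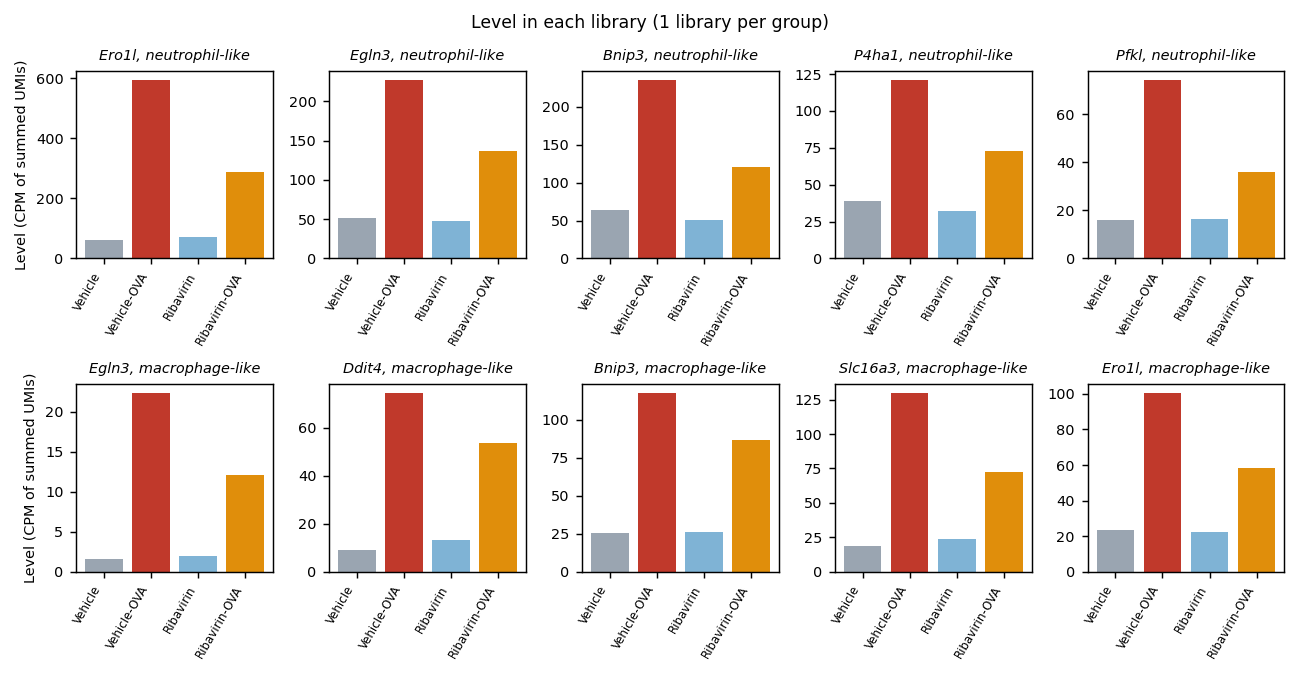
CPM of the named genes in each of the 4 libraries (bars, 1 library per group, no error between replicates), in neutrophil-like cells (top row) and macrophage-like cells (bottom row). In every panel the Vehicle-OVA bar is the highest and the Ribavirin-OVA bar is next. The genes were chosen for being called higher with OVA in both pairs.

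**Figure D4:**
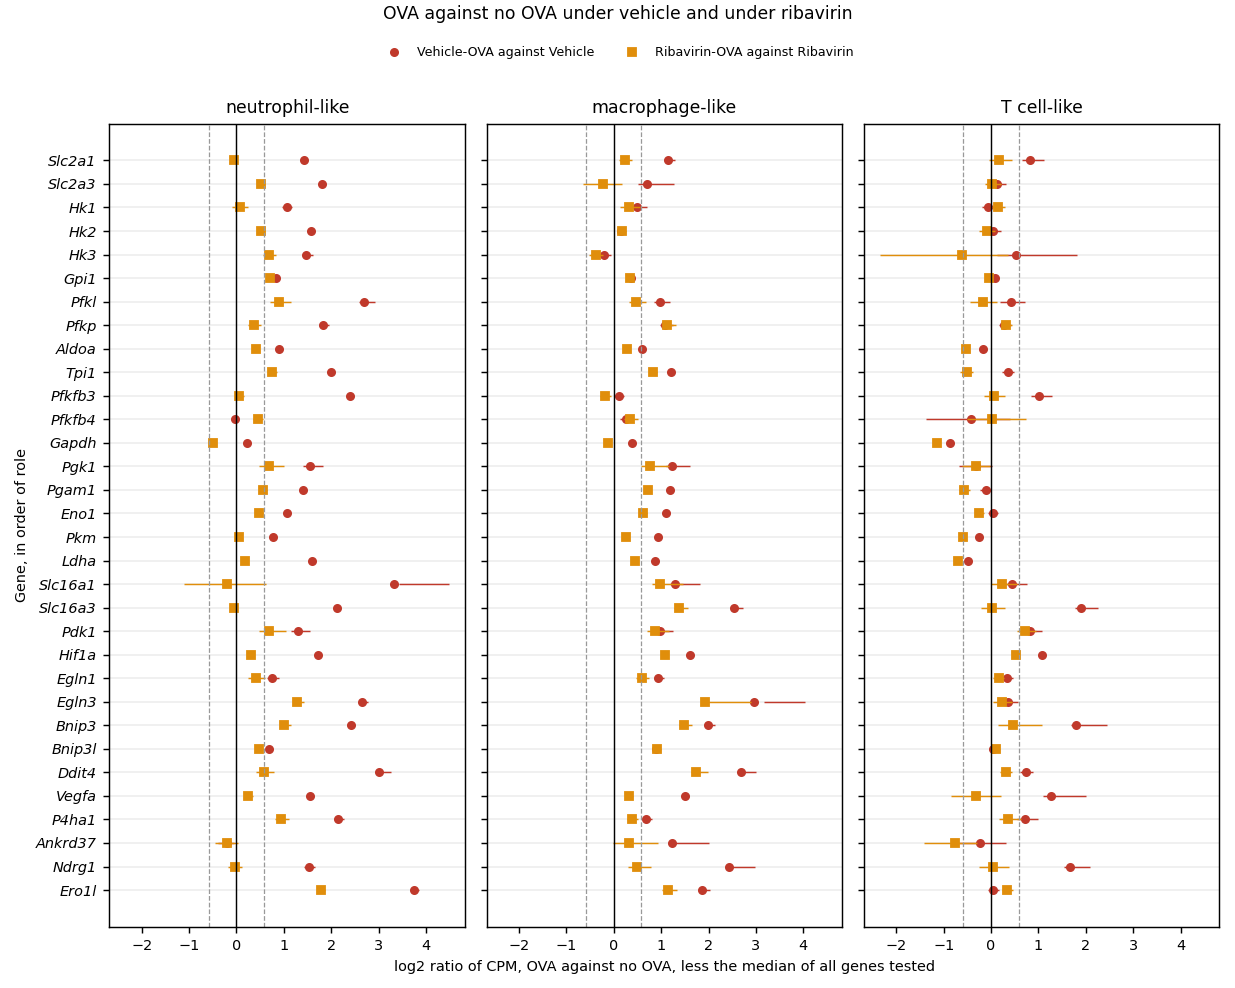
Log2 ratio of CPM + 1 with OVA against without, less the median of all genes tested, for each of the 32 genes under vehicle (circles) and ribavirin (squares) in 3 classes. Lines are 95% counting intervals of the ratio taken without the added 1, which for low genes do not centre on the point, and dashed lines mark 1.5-fold. Circles called higher numbered 29 in the neutrophil-like panel, 25 in the macrophage-like panel and 10 in the T cell-like panel, and squares 10, 15 and 1.

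HIF-1 binds DNA at a short core, ACGTG or GCGTG. Only ACGTG was searched for, so a window without a match can still hold the other form. The 250 bases before the RefSeq transcription start were at hand for 28 of the 32 genes (all but Slc2a3, Bnip3l, Ndrg1 and Ero1l). ACGTG on either strand was in at least 1 window of 19 of the 28 genes (67.9%), against 25% of 9116 genes tested in neutrophil-like cells and 18.5% of all 27025 genes with a window. Several HIF targets were put on the list because they are known as such, and a match is only a run of letters. Leading for OVA were up to 5 genes per class in neutrophil-like and macrophage-like cells, and 5 of these genes held a match. Others mentioned above, such as Hif1a and Pgk1, held a match too but are not shown. The windows of the 5 leading genes with a match are given next. They show where ACGTG lies, 5′ to 3′ on the gene's own strand from GRCm38.p6, with ACGTG or its reverse complement CACGT in capitals.

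Egln3, chr12:54203875-54204124, - strand: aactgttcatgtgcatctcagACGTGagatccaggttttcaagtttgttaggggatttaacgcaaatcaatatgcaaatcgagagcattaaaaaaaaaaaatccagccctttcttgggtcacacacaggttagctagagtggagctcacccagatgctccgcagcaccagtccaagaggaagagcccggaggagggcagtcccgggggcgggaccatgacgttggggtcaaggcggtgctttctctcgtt
Bnip3, chr7:138909507-138909756, - strand: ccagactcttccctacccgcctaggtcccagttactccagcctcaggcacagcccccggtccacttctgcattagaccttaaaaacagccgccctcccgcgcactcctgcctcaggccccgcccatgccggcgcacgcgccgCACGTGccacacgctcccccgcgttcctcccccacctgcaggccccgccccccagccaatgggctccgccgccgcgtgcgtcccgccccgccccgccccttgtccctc
P4ha1, chr10:59323046-59323295, + strand: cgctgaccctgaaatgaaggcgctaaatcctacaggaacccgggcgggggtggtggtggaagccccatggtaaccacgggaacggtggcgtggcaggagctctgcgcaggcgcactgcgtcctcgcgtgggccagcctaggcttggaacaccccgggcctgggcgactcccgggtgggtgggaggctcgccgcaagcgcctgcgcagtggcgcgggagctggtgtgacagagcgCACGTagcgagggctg
Ddit4, chr10:59951771-59952020, - strand: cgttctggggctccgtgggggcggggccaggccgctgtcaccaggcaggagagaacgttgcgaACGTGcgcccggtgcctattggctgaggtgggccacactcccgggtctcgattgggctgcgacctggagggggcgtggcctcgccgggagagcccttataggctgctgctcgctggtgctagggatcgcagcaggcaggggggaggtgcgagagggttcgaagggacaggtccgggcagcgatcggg
Slc16a3, chr11:120948817-120949066, + strand: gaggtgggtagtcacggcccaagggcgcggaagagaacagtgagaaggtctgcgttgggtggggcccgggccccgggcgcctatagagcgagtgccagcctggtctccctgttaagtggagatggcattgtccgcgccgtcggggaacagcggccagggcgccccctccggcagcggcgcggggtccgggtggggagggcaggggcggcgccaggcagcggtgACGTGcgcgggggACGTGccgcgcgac

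Slc16a3 held ACGTG in 2 places, starting 27 and 14 bases before the start site, and P4ha1 held it on the opposite strand 16 bases before the start. In Bnip3 both strands carried it in the palindrome CACGTG, 108 bases before the start. In Ddit4 and Egln3 it lay 187 and 229 bases before the start. Pfkl, also named above, had no ACGTG on either strand of its window, but the window did hold GCGTG, the form not searched for.

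In T cell-like cells the picture was less uniform. With OVA under vehicle 10 genes were called higher and 1 lower, beside 14.5% and 19.2% of 11799 genes, and under ribavirin 1 was higher and 4 lower, beside 12.1% and 18.7%. Without centring the counts were 17 higher and 0 lower (35.8% and 9.87% of all genes) and 8 higher and 1 lower (34.2% and 9.78%). Pdk1, a kinase that inhibits pyruvate dehydrogenase, was called higher in both pairs. It was at 20.5 CPM in Vehicle and 48.3 in Vehicle-OVA (ratio 2.36, 2.05 to 2.71). Under ribavirin it was at 19.7 CPM in Ribavirin and 42.3 in Ribavirin-OVA (ratio 2.15, 1.87 to 2.48). Gapdh was called lower in both, at 1074 and 760.3 CPM (ratio 0.708, 0.686 to 0.729) and at 1132 and 653 CPM (ratio 0.577, 0.561 to 0.594). Hif1a was at 266 and 730 CPM under vehicle, where it was called, and at 330 and 614 CPM under ribavirin, where it was not.

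The genes called under vehicle alone included Slc16a3 (9.17 and 47.8 CPM), Bnip3 (3.69 and 19.97 CPM), Ndrg1 (7.31 and 33.3 CPM) and Vegfa (3.15 and 12.0 CPM), which are high in myeloid cells. The others, besides Hif1a, were Slc2a1, Pfkfb3, P4ha1 and Ddit4. Of these, Ddit4 (44.5 and 96.5 CPM) was highest by median in T cell-like cells among the 10 classes. In T cell-like cells the neutrophil markers summed to 428 CPM in Vehicle, 1120 in Vehicle-OVA, 640 in Ribavirin and 352 in Ribavirin-OVA, so they were highest in the same library. At the marker share of 1.49%, the neutrophil-like level of Slc16a3 would give 10.5 of the 47.8 CPM in Vehicle-OVA, and that of Vegfa 2.76 of the 12.0 CPM. For Bnip3 it would be 3.52 of 19.97 CPM, for Ndrg1 1.12 of 33.3 CPM and for Ddit4 1.35 of 96.5 CPM. The part of other cells' RNA in these levels was not tested further.

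In monocyte-like cells 12 genes were called higher and 0 lower with OVA under vehicle, beside 13.6% and 17.5% of 10128 genes, and 2 higher and 4 lower under ribavirin, beside 13% and 16.3%. Slc16a3 (55.8 and 204 CPM, then 73.1 and 157 CPM) and Ndrg1 (18.3 and 61.8 CPM, then 21.0 and 63.1 CPM) were called higher in both pairs. Bnip3 was at 23.3 and 92.7 CPM under vehicle but at 26.3 and 29.0 CPM under ribavirin. Monocyte-like cells numbered 414 in Vehicle-OVA and 326 in Ribavirin-OVA. In epithelial-like cells 16 of 31 genes were higher under vehicle (16.9% of all genes). Plasma cell-like cells had 14 of 31 (14.5%) and cDC-like cells 14 of 29 (14.3%). NK cell-like, pDC-like and B cell-like cells had 8 of 25 (12.2%), 6 of 26 (12.4%) and 5 of 26 (11.5%). Under ribavirin the same classes had 3 (7.99%), 4 (13.6%), 5 (11.8%), 1 (11.6%), 3 (11.2%) and 8 (14.7%) higher. Lower were 0 to 2 genes under vehicle (13.4% to 17.8%) and 1 to 6 under ribavirin (13.7% to 18.2%).

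Between the libraries without OVA few of these genes differed by 1.5-fold. In neutrophil-like cells of Ribavirin against Vehicle mice 4 genes were called higher and 0 lower, beside 8.3% and 0.591% of all genes. They were Slc16a3 (425 against 233 CPM), Slc2a3 (139 against 81.7 CPM), Pfkfb3 (131 against 84.6 CPM) and Ddit4 (23.0 against 15.5 CPM). In macrophage-like cells 2 were higher and 0 lower, beside 2.07% and 0.539%, namely Vegfa (119 against 75.7 CPM) and Ndrg1 (11.1 against 4.18 CPM). In T cell-like cells 1 was higher and 0 lower, beside 2.02% and 0.415%, namely Slc16a3 (16.1 against 9.17 CPM). With 1 library per group these differences were not tested.

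Among the OVA libraries, more of these genes were called lower than higher with ribavirin in neutrophil-like, macrophage-like, monocyte-like and T cell-like cells, but not in B cell-like cells, where 4 of 26 were higher and 2 lower (8% and 8.52% of all genes). In macrophage-like cells of Ribavirin-OVA against Vehicle-OVA 7 genes were called lower and 0 higher, beside 2.53% and 4.41% of all genes. Egln3 was at 12.1 against 22.4 CPM (ratio 0.541, 0.453 to 0.645), Slc16a3 at 72.6 against 129.9 CPM (ratio 0.559, 0.520 to 0.6003) and Ero1l at 58.4 against 101 CPM (ratio 0.581, 0.536 to 0.629). The others were Slc2a1, Pkm, Ankrd37 and Ndrg1. The neutrophil marker sum in macrophage-like cells was 1440 CPM in Vehicle-OVA and 543 CPM in Ribavirin-OVA, and the median gene moved by 0.01 on the log2 scale.

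In neutrophil-like cells the same comparison gave 25 genes lower and 0 higher, beside 15.5% and 9.82% of all genes. Here the median gene was higher by 0.64 on the log2 scale in Ribavirin-OVA, and without centring 12 genes were lower and 2 higher, beside 5.69% and 53.7% of all genes. The 2 higher genes were Pfkfb4 (133 against 63.4 CPM) and Gpi1. Ero1l (288 against 595 CPM), Ddit4 (40.5 against 90.6 CPM), Pfkl (35.9 against 74.4 CPM) and Bnip3 (121 against 236 CPM) had ratios of 0.447 to 0.511, and so were lower on both scales. Aldoa (555 against 552 CPM) and Eno1 (246 against 241 CPM) were called lower only relative to the median gene. In monocyte-like cells 14 were lower and 0 higher, beside 6.67% and 6.39%, and in T cell-like cells 7 were lower and 0 higher, beside 3.03% and 2.77%. These comparisons use the same OVA libraries as the ones before, so they are not independent of them.

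Macrophage-like cells of the OVA libraries were also split by Arg1, the arginase of alternatively activated macrophages. Cells with at least 2 Arg1 UMIs numbered 1287 in Vehicle-OVA and 1101 in Ribavirin-OVA, and cells with 0 Arg1 UMIs numbered 263 and 283. In the libraries without OVA only 43 and 113 cells were Arg1-positive. Depth differed, with medians of 10283 and 10390 UMIs per Arg1-positive cell against 4225 and 3243 per Arg1-negative cell. In Vehicle-OVA 21 of the 32 genes were called higher in Arg1-positive cells and 0 lower, beside 8.5% and 11.4% of 10807 genes. In Ribavirin-OVA 19 were higher and 1 lower, beside 7.1% and 8.96%.

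Vegfa was at 271 CPM in Arg1-positive and 86.5 in Arg1-negative cells of Vehicle-OVA (ratio 3.14, 2.68 to 3.69), and at 194 and 59.9 CPM in Ribavirin-OVA (ratio 3.24, 2.70 to 3.92). Slc16a3 was at 143 and 45.4 CPM in Vehicle-OVA (ratio 3.15, 2.54 to 3.95) and at 80.4 and 31.9 CPM in Ribavirin-OVA (ratio 2.52, 1.96 to 3.29). Ero1l was at 108 and 50.6 CPM, then at 65.6 and 20.1 CPM. Hif1a was at 579 and 247 CPM, then at 448 and 204 CPM. The 1 lower gene was Slc2a3, at 4.28 CPM in Arg1-positive and 10.3 in Arg1-negative cells of Ribavirin-OVA (ratio 0.415, 0.248 to 0.721). With every cell thinned to 1000 UMIs, 28 of the 32 genes could be tested. In Ribavirin-OVA 11 of them were then higher and 0 lower, so Slc2a3 was no longer called, and in Vehicle-OVA 16 were higher and 1 lower. The shares of all genes after thinning are not given.

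**Figure D5:**
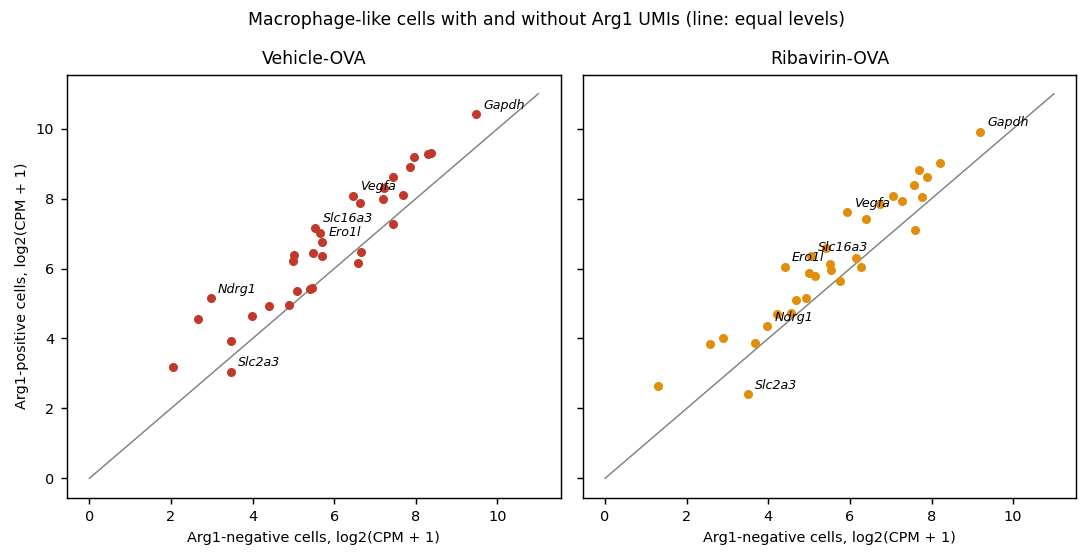
Level of each of the 32 genes (points) in Arg1-positive against Arg1-negative macrophage-like cells of the 2 OVA libraries, on log2(CPM + 1) axes with the line of equal levels. Most points lie above the line, including Vegfa and Slc16a3, and Slc2a3 lies below it.

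Other genes of the same pathways were read from lists, which were chosen with earlier results of these data known. For all genes in neutrophil-like cells the shares higher and lower were 23.4% and 22.4% under vehicle and 11.9% and 15.4% under ribavirin, and in macrophage-like cells 15.2% and 17.1%, then 13.7% and 15.2%. Of 31 other hypoxia-induced genes 27 were testable in neutrophil-like cells, where 22 were called higher and 1 lower with OVA under vehicle and 9 higher and 3 lower under ribavirin. In macrophage-like cells 14 of 28 were higher and 1 lower under vehicle, and 11 higher and 1 lower under ribavirin. Hilpda, a lipid droplet protein, was at 63.9 CPM in Vehicle, 758 in Vehicle-OVA, 99.5 in Ribavirin and 109.6 in Ribavirin-OVA in neutrophil-like cells, and at 35.9, 173, 40.8 and 102 CPM in macrophage-like cells. Hmox1, which breaks down heme, was at 104, 609, 93.5 and 275 CPM in neutrophil-like cells.

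Of 10 testable genes for pyruvate entry into mitochondria, 0 were called higher and 3 lower in neutrophil-like cells with OVA under vehicle, and 0 higher and 2 lower under ribavirin. The lower counts are near the shares of all genes called lower, 22.4% and 15.4%. Mpc2, a subunit of the mitochondrial pyruvate carrier, was at 144 CPM in Vehicle, 29.7 in Vehicle-OVA, 113 in Ribavirin and 69.2 in Ribavirin-OVA. In macrophage-like cells Mpc1 was at 230.1, 128, 204 and 122 CPM in the same order and was called lower in both pairs. Of the 7 pentose phosphate genes, 1 was higher and 1 lower in neutrophil-like cells under vehicle and 3 higher and 1 lower under ribavirin, with Tkt at 129, 166, 174 and 449 CPM. Of 8 testable other glycolytic isozymes in neutrophil-like cells, 2 were higher and 2 lower under vehicle and 1 higher and 2 lower under ribavirin, with Ldhb, the other lactate dehydrogenase subunit, at 13.9, 3.46, 17.0 and 7.54 CPM. Of 5 testable other oxygen sensing genes, 3 and 2 were higher and 0 lower.

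Genes that respond to tissue digestion were read beside these. In neutrophil-like cells 7 of 15 dissociation stress genes were called higher with OVA under vehicle and 0 lower, beside 23.4% and 22.4% of all genes. Under ribavirin 2 were higher and 1 lower, beside 11.9% and 15.4%, so the higher count there is near the share of all genes. Hspa1b, an inducible chaperone, was at 20.05 CPM in Vehicle, 313 in Vehicle-OVA, 16.4 in Ribavirin and 192 in Ribavirin-OVA. In macrophage-like cells 2 were higher and 2 lower under vehicle, and 0 higher and 6 lower under ribavirin. The part of digestion stress in the results of either class was not tested.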

How the data were processed

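Nasal mucosa was digested, CD45+ cells were enriched (magnetic beads per the labels, flow sorting per the series text) and droplet libraries were made on a 10x Chromium system. The authors deposited integer UMI counts per gene and cell from Cell Ranger (5.0.0, build mm10 per the submitters' notes), which drops reads that match several genes. Cells were kept with at least 500 UMIs, 200 genes and under 10% mitochondrial UMIs. A class needed at least 2 markers present and 2 times the count of the next class (104 markers listed, 4 not found). No doublet caller was run. UMIs were summed per class and library. Class contrasts used edgeR 4.0.16 (R 4.3.3; TMM, quasi-likelihood, library block), with DESeq2 1.42.0 as alternative. Library ratios used a pseudocount of 1 CPM and exact 95% conditional binomial intervals, which cover counting error only. Both steps were tested on simulated data. The replicate of a class contrast is a library, and nothing says whether a library held 1 or several mice.

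The named genes were, for class contrasts, up to 3 with the largest change in each direction past an adjusted p of 0.05, and, for OVA, up to 5 per class past 1.5-fold the same way under vehicle and ribavirin. Members, lists and markers were chosen with earlier results of these data known. Alternatives added after seeing the data were library totals alone, cells of 2000 to 5000 UMIs, cells of at least 2000 UMIs, and Siglecf-negative cells.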

Additional observations from a re-analysis of the deposited data

Results flagged for a closer look

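In monocyte-like cells Vegfa was called in opposite directions by OVA. Its centred log2 ratio was 1.16 under vehicle, from 64.7 to 181 CPM (644 and 710 UMIs), and -1.87 under ribavirin, from 102 to 35.7 CPM (921 and 117 UMIs). In cDC-like cells Slc2a1 had a centred log2 ratio of 0.66 under vehicle, from 20.7 to 41.9 CPM (86 and 57 UMIs), and -0.84 under ribavirin, from 21.6 to 15.8 CPM (86 and 25 UMIs). The counting interval of the second ratio, 0.447 to 1.15, held 1, so that fall stood only against the median gene. With 1 library per group neither difference was tested.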

How the results depend on the processing

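No paired analysis was possible because each group has 1 library, so that replicate numbers pair nothing. A fit of OVA over both drug groups with the drug as a term was not run. Of the alternative values for counts of genes, 253 stayed within 1.5 times the reported count and 35 did not. For library ratios and Arg1, higher and lower genes were counted together, so a change of direction could count as staying. T cell-like cells with OVA under ribavirin went from 1 higher and 4 lower to 3 and 3 with thinning. With no filter on low counts they had 3 and 1, both given without the shares of all genes. Of the alternative values for named genes 474 stayed, 82 moved, 5 lost significance (Egln1 against T cell-like cells and Pfkfb3 in monocyte-like cells) and none reversed. Library totals alone moved the lower counts to 2 (neutrophil-like against macrophage-like), 7 (neutrophil-like against T cell-like), 11 (macrophage-like against T cell-like) and 17 (Siglecf), and the higher Siglecf count to 3. Leaving out 1 library gave 21 to 26 higher and 0 to 1 lower genes in the first contrast, 23 to 27 and 0 to 4 in the next, 12 to 15 and 5 to 10 in macrophage-like against T cell-like cells, 3 to 8 and 0 to 2 in monocyte-like against macrophage-like cells, and 0 to 1 higher and 26 to 27 lower for Siglecf. The extremes that left the 1.5-fold range came without Vehicle-OVA (1, 4 and 2 lower genes in the first, next and monocyte-like contrasts and 1 higher for Siglecf), without Vehicle (0 lower against T cell-like cells, 3 higher in monocyte-like cells), without Ribavirin (3 higher and 0 lower in monocyte-like cells) and without Ribavirin-OVA (0 lower in the T cell-like and monocyte-like contrasts). The lower count of neutrophil-like against T cell-like cells was 2 at mitochondrial limits of 5% and 20% and with thinning to 1000 UMIs. That of monocyte-like against macrophage-like cells was 3 with the stricter marker rule and 0 with thinning. Without centring the called genes numbered 17 (T cell-like, vehicle), 20 (neutrophil-like, ribavirin), 9 (T cell-like, ribavirin), 2 (T cell-like, ribavirin without OVA) and 14 (neutrophil-like, ribavirin with OVA). With no filter on low counts neutrophil-like cells had 19 under ribavirin. T cell-like cells under ribavirin had 2 with the mean of single-cell CPM and 8 with the stricter rule. T cell-like cells in ribavirin without OVA had 2 without mitochondrial and ribosomal protein genes, 2 with the mean of single-cell CPM, 0 with a pseudocount of 5 CPM and 2 at a mitochondrial limit of 5%. In ribavirin with OVA they had 4 with at least 500 UMIs per gene and 4 with thinning. Arg1 in Ribavirin-OVA gave 11 with thinning. Causes of these moves were not tested. Depth limits the low genes most, such as Slc2a3 in macrophage-like cells (3.52 to 7.41 CPM).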
